A study of Homo sapiens with 8 samples.

Results

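Cholesterol synthesis and its regulation were examined through 35 genes in oligodendrocyte progenitor cells (OPCs) kept on 3 culture substrates. The genes were a list of named pathway members, set without a threshold on any value but with earlier results of these data known: 7 enzymes of the mevalonate pathway, 11 enzymes from squalene to cholesterol, 5 genes of the SREBP system, 3 of intracellular sterol transport, 3 targets of the liver X receptors (LXR) and 6 enzymes of fatty acid synthesis. All 35 were among the 18201 genes that passed the filter on low counts, out of 58217 with a matched transcript.

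The OPCs had been made from the human embryonic stem cell line H9 and were plated for 2 days in OPC medium on Matrigel (a basement membrane extract, the control, n = 2), on recombinant vitronectin (VN, n = 3) or on VNP2 (n = 3), a designed RGD peptide derived from vitronectin and joined to a mussel adhesive protein. Every group had the same medium, which holds retinoic acid, the Hedgehog agonist SAG, insulin, basic FGF and the N2 and B27 supplements, and none carried the SOX10 transgene that the study used elsewhere. Poly(A) RNA gave stranded, paired-end libraries that each held between 37997896 and 39429453 estimated counts. The labels do not say whether the replicates were separate cultures, so the p-values measure the spread between these libraries, which may be technical, and they rest on 1 cell line.

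The cells carried some but not all of the markers of their label. OLIG1 and OLIG2 had 60.6 and 49.6 TPM, a level corrected for transcript length and library size, as means over the 8 libraries. SOX10, a defining gene of the lineage, had 20 estimated counts in all libraries together. The summed level of 6 OPC markers was 107 to 109 TPM on Matrigel, on VN 136 to 138 and on VNP2 138 to 146, and that of 6 neuronal markers was 692 to 731, 775 to 835 and 839 to 857 TPM. Most of the neuronal sum was TUBB3 (mean 557 TPM), which was not called in any pair. Of the OPC markers 2 were called higher on VN and 5 on VNP2, and of the neuronal ones 3 and 4. Of all genes tested, 5.66% were called higher on VN and 7.44% on VNP2, and 9.60% and 9.13% lower. The 4 neural progenitor markers summed to 3296 to 3379 TPM on Matrigel, with 2729 to 2776 on VN against 2993 to 3026 on VNP2, a sum held mostly by VIM (mean 2206 TPM). VIM and NES were called lower on both coatings, SOX2 had 0.15 and 0.06 on the log2 scale (adjusted p = 0.0603 and 0.449), and PAX6 was near 0. Of 6 mesenchymal markers (484 to 600 TPM in sum over all libraries), 3 were higher on VN, 5 were higher on VNP2, and COL1A1 was lower on both. Of 5 oligodendrocyte markers (30.6 to 34.6 TPM), MYRF was lower on both coatings and MBP on VNP2, with MAG and MOG near 0. Of 4 pluripotency markers (36.2 to 42.7 TPM), POU5F1 was lower and DPPA4 higher on VNP2, and of 4 neural crest markers (4.04 to 6.69 TPM), TFAP2A was higher on VNP2. Astrocyte markers summed to at most 4.93 TPM, with 0 called, and microglial and endothelial markers each stayed under 1 TPM in sum, with the endothelial CDH5 lower on both coatings. The part of these shifts in the sterol results was not tested. In bulk RNA, fewer cells of a type and less RNA per cell cannot be told apart. Among the libraries, VN replicate 1 stood apart most: the median chi-square per gene between it and the other VN libraries was 2.25 and 2.62, against 0.782 between those other libraries, where sampling alone gives 0.455. VNP2 replicate 2 stood apart less, with 1.14 and 1.16 to the other VNP2 libraries, against 0.767 between those.

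Cells build cholesterol from acetyl-CoA through the mevalonate pathway, squalene and a series of sterol intermediates. Falling sterol in the endoplasmic reticulum lets SCAP carry the SREBP transcription factors to the Golgi, where they are cut and released to activate genes of cholesterol and fatty acid synthesis, whereas INSIG proteins hold SCAP back when sterol is plentiful. LXRs sense oxysterols and turn on genes of cholesterol export, and cells of the oligodendrocyte lineage depend on this chemistry because myelin is rich in cholesterol.

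The stretch before the transcription start can hold letters that transcription factors read. RefSeq windows (GRCh38.p14) were found for 30 of the 35 genes, through 40 start sites, some of which overlap, and the 250 bases before each start were searched on both strands for the letters of 4 motifs: CCAAT, bound by NF-Y, TCACNCCAC, a sterol regulatory element, the E-box CACGTG, and the DR4 element that LXRs bind. The stretches of 4 genes are shown as examples with matches: SREBF2 for the sterol regulatory element, SCD and MVD from genes that fell and MYLIP from one that rose. They are printed up to the first base of an exon of the gene in GENCODE 29, with motif matches in capitals (ATTGG is CCAAT on the other strand).
SREBF2: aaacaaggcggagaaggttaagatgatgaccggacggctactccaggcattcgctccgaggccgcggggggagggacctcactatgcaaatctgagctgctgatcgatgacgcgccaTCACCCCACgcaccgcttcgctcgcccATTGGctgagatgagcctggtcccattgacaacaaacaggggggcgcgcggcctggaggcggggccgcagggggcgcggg
SCD: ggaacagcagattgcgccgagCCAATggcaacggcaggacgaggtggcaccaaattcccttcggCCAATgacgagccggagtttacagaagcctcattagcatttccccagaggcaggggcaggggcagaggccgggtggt
MVD: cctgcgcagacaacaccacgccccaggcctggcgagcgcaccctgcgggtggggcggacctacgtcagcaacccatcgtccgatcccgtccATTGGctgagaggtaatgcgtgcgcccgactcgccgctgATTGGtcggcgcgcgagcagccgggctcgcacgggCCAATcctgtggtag
MYLIP: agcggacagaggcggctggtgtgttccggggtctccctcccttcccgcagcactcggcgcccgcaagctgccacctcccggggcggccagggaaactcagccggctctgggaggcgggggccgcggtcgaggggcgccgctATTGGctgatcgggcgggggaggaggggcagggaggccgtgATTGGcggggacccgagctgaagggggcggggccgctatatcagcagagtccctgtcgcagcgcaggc

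The printed stretches lie at chr22:41832855-41833078 on the plus strand for SREBF2, chr10:100346983-100347123 plus for SCD, chr16:88663162-88663341 minus for MVD and chr6:16128836-16129085 plus for MYLIP. SREBF2 held the sterol regulatory element, starting 133 bases before the start site, and a CCAAT box, and it was not called in any pair. MVD held 3 CCAAT boxes and SCD and MYLIP 2 each. SC5D, whose stretch lies in an annotated exon and is not printed, held a CCAAT box beside an E-box, and ELOVL6, which fell on both coatings, held none of the 4 motifs. A CCAAT box was in 23 of the 40 stretches (57.5%), from 20 of the 30 genes, and in 32% of the 35116 stretches of all genes. At least 2 were in 15 of the 40 (37.5%), against 9.53% of all. The TCACNCCAC letters were in 1 of 40 (2.5%, against 0.883% of all), CACGTG in 5 of 40 (12.5% against 6.34%) from SCAP, INSIG1, ABCA1 and SC5D, and the DR4 letters in 0 of 40, against 0.0142% of all. The median GC content was 68.2% in the 40 stretches and 58.0% in all. A match is a description of these letters and not a measured binding site, and a stretch without one says nothing of the factor.

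The members ranged from 5.09 TPM for the exporter ABCA1 to 624 TPM for HMGCS1, the synthase that makes HMG-CoA, as means over the libraries. FADS2, FDFT1, SCD and FDPS followed HMGCS1 with 471, 436, 425 and 415 TPM. Together the 35 genes made up 0.532% of all transcripts, of which the 7 mevalonate enzymes held 0.176%, the 11 later enzymes 0.148% and the 6 fatty acid enzymes 0.138%. The 3 LXR targets held 0.00222%.

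**Figure D1:**
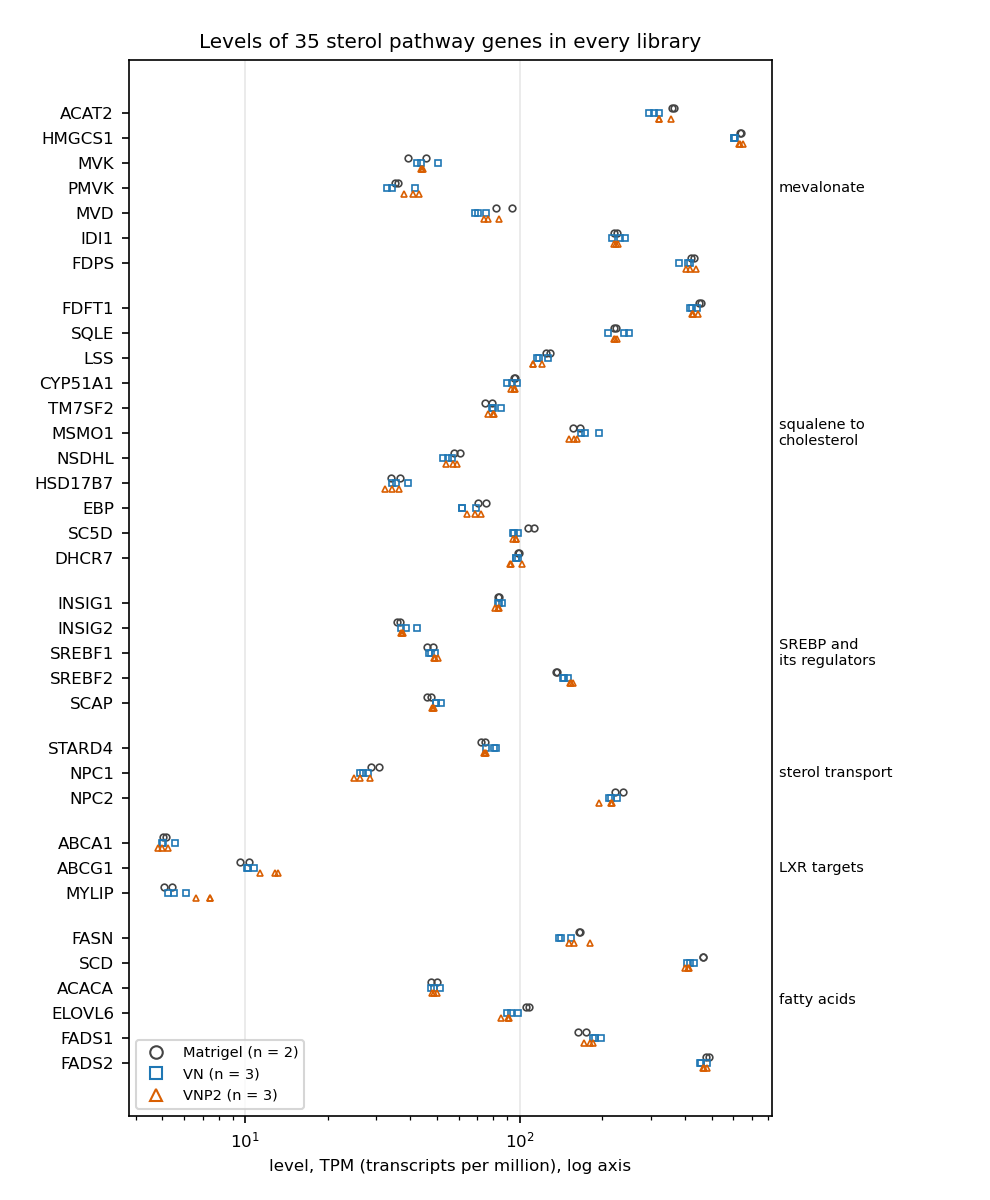
Level of each of the 35 genes in every library, in TPM on a log axis, with Matrigel as circles (n = 2), VN as squares (n = 3) and VNP2 as triangles (n = 3). Levels ran from 5.09 TPM (ABCA1) to 624 TPM (HMGCS1) as means over the 8 libraries, and the symbols of the 3 substrates lie close together within each gene.

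Between substrates, most of the genes that changed were lower away from Matrigel. A gene was called when its adjusted p was under 0.05 in the quasi-likelihood test of edgeR over all 8 libraries, with Benjamini-Hochberg adjustment over all 18201 genes. On VN, 11 of 35 members were called, all lower and 0 higher (31.4%), where 15.3% of all genes tested were called, 9.60% lower and 5.66% higher. Among the 10500 genes counted at least as highly as the lowest member, 20.8% were called, 13.3% lower and 7.51% higher. On VNP2, 8 members fell and 2 rose against Matrigel (28.6%), where 16.6% of all genes were called, 9.13% lower and 7.44% higher, and 20.9% of the 10500, 12.1% lower and 8.84% higher. Between VNP2 and VN, 1 member was called, higher on VNP2 (2.86%), against 5.10% of all genes, 3.09% higher and 2.01% lower, and 6.18% of the 10500, 3.64% higher and 2.54% lower. Across the 3 substrates 12 members were called (34.3%), against 19.3% of all genes and 24.8% of the 10500.

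The shifts were small and ran mostly one way. The median log2 fold change of the 35 members was -0.08 on VN and -0.09 on VNP2 against Matrigel, with 26 and 29 estimates below 0, whereas the median over all genes tested was 0.0044 and 0.0024, with 49.3% and 49.5% below 0. Every VN library lay below both Matrigel libraries for 19 members (54.3%) and above for 0, where 23.3% and 21.1% of all genes did so. For VNP2 the counts were 23 below (65.7%) and 4 above, where 25.1% and 23.0% of all genes did so. The highest mean was on Matrigel for 23 of 35 members (65.7%) and for 37.7% of all genes. In TPM, the sum of the 35 members was 5406 and 5518 on Matrigel, 5212 to 5282 on VN and 5214 to 5427 on VNP2. On that scale VN lay below Matrigel, while VNP2 overlapped it. Between VNP2 and VN the median was -0.0018, with 5 members above and 2 below without overlap, where 12.7% and 10.9% of all genes were. Both comparisons with Matrigel share the same 2 Matrigel libraries, and without Matrigel replicate 2 or 3 the calls on VN numbered 5 or 4, and those on VNP2 numbered 3 in both cases. The share of all genes called fell in the same fits, to 6.53% and 6.33% on VN and to 8.72% and 8.57% on VNP2. Without VN replicate 2 or 3 they numbered 7 or 6 on VN, and without VNP2 replicate 2 or 3 they numbered 4 or 3 on VNP2, with 10.9% and 10.3% and with 12.5% and 11.6% of all genes called.

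**Figure D2:**
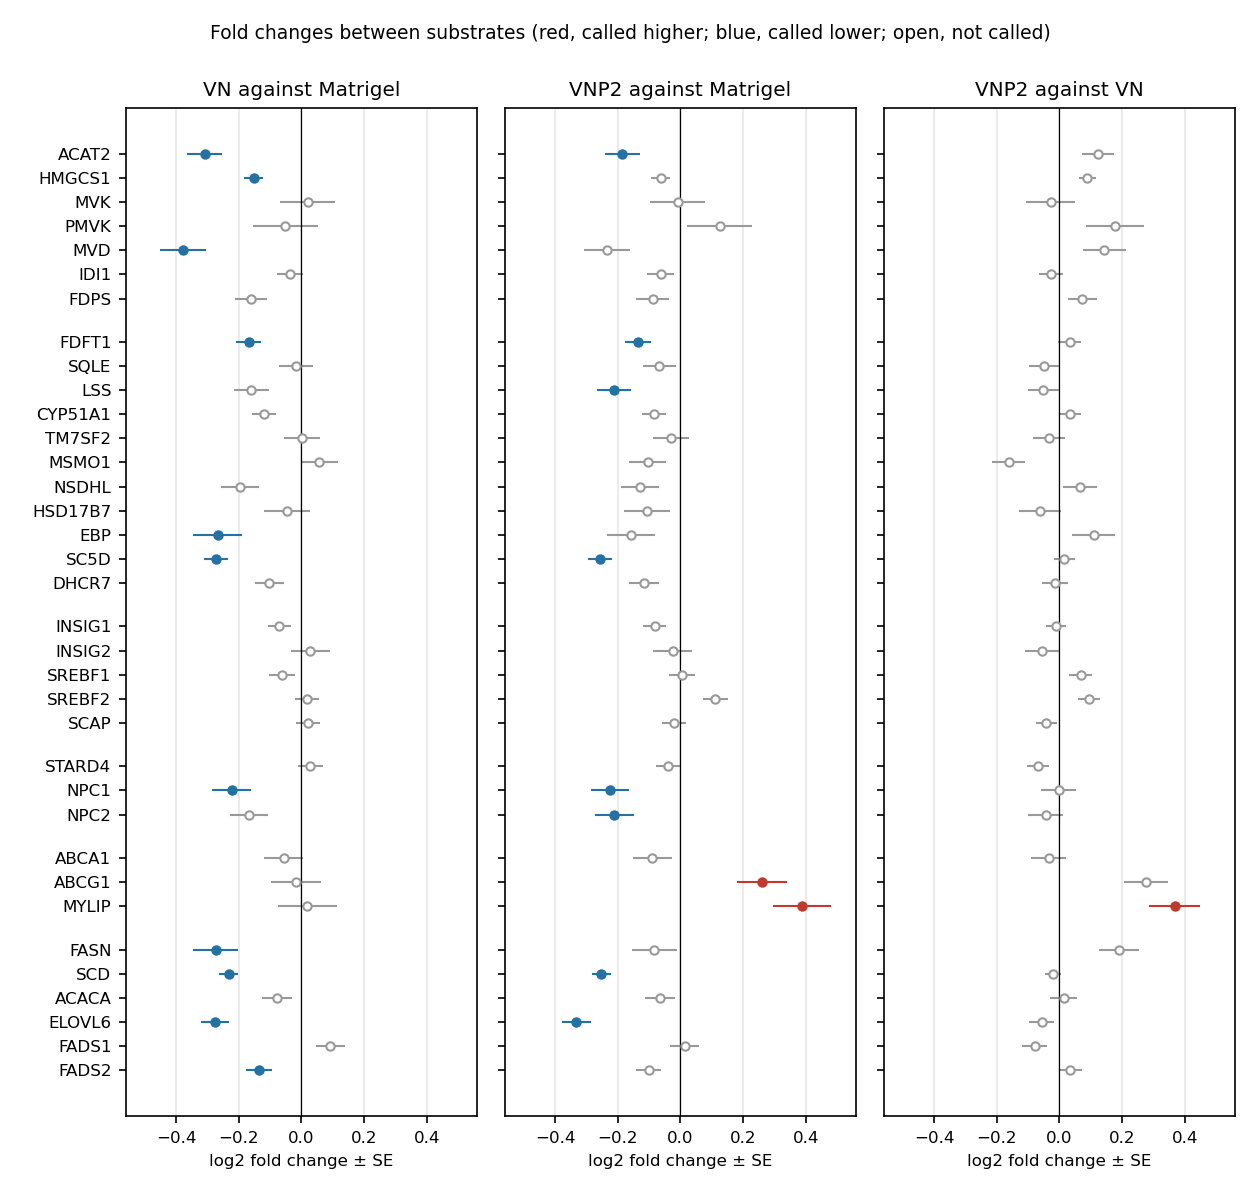
Log2 fold change of each of the 35 genes with its standard error, for VN against Matrigel, VNP2 against Matrigel and VNP2 against VN, with genes ordered by role; filled blue points were called lower, filled red points higher, and open points were not called. Calls numbered 11 lower on VN, 8 lower and 2 higher on VNP2, and 1 higher between VNP2 and VN.

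Of the 7 mevalonate enzymes, 3 fell on VN and 1 on VNP2 (42.9% and 14.3%), and the median log2 fold change was -0.15 and -0.06. Of all genes tested, 9.60% were called lower on VN and 9.13% on VNP2, and of the 10500 genes 13.3% and 12.1%. ACAT2, the cytosolic thiolase that joins acetyl-CoA units at the head of the pathway, had 11049 and 11196 normalized counts (counts scaled for library size and transcript length) on Matrigel, while the VN libraries had 9513, 8905 and 8516 and the VNP2 libraries 10473, 9471 and 9399. Both Matrigel libraries lay above all others. ACAT2 fell by 0.31 ± 0.0561 on the log2 scale (SE, adjusted p = 0.00479) on VN and by 0.19 ± 0.0561 (adjusted p = 0.0473) on VNP2. HMGCS1, the next enzyme, had 32785 and 32861 on Matrigel, compared with 29912, 29569 and 29133 on VN and 32180, 30996 and 31070 on VNP2. The VN libraries were the lowest and the VNP2 libraries lay between the groups. HMGCS1 fell by 0.15 ± 0.0302 on VN (adjusted p = 0.00767), and its difference of -0.06 on VNP2 was not called (adjusted p = 0.198).

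MVD, which forms isopentenyl diphosphate, had 2458 and 2785 normalized counts on Matrigel, against 2157, 1926 and 1968 on VN and 2396, 2185 and 2107 on VNP2. It fell by 0.38 ± 0.0744 on VN (adjusted p = 0.00741), which is 23.0% and was the largest fall among the members there, while -0.23 on VNP2 missed the threshold (adjusted p = 0.0571). The VNP2 difference passed it in some alternatives, among them DESeq2 (adjusted p = 0.0260). FDPS, which makes farnesyl diphosphate, had a log2 fold change of -0.16 on VN (adjusted p = 0.0580), with every VN library (9340 to 10467) under both Matrigel libraries (10993 and 11273). Some alternatives called FDPS lower on VN, among them DESeq2 (adjusted p = 0.0209). The kinases MVK and PMVK and the isomerase IDI1 had values between -0.06 and 0.13 in both comparisons, and none was called. The call of ACAT2 on VN held in all 16 alternative fits. That of MVD was lost without Matrigel replicate 3 (adjusted p = 0.0923), that of HMGCS1 without either Matrigel library or without length offsets (adjusted p up to 0.0649), and that of ACAT2 on VNP2 without either Matrigel library or VN replicate 2, VNP2 replicate 2 or VNP2 replicate 3 (adjusted p up to 0.208).

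From squalene to cholesterol, 3 of 11 enzymes fell on VN and 3 on VNP2 (27.3% on each), and the median was -0.12 in both. The shares called lower were 9.60% and 9.13% of all genes tested, and 13.3% and 12.1% of the 10500. SC5D, the sterol desaturase that acts late in the pathway (chr11:121292453-121308694, plus strand), had 4884 and 5099 normalized counts on Matrigel, while the VN libraries had 4135, 4064 and 4191 and the VNP2 libraries 4219, 4220 and 4086. The libraries of VN and VNP2 overlapped with each other and lay below Matrigel. SC5D fell by 0.27 ± 0.0380 on VN (adjusted p = 0.000925) and by 0.26 ± 0.0381 on VNP2 (adjusted p = 0.00103). The call on VN was lost only in the fit without length offsets (adjusted p = 0.116), and that on VNP2 held in all 16 alternatives.

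FDFT1, squalene synthase, had 18175 and 18294 normalized counts on Matrigel, compared with 17024, 15718 and 15931 on VN and 17096, 16437 and 16253 on VNP2. It fell by 0.17 ± 0.0405 on VN (adjusted p = 0.0191) and by 0.14 ± 0.0405 on VNP2 (adjusted p = 0.0445), with Matrigel above every other library. LSS, which closes the first sterol ring system as lanosterol, had 10925 and 11257 on Matrigel, against 10670, 9496 and 9624 on VN and 10094, 9356 and 9290 on VNP2. Only its fall on VNP2 was called, by 0.21 ± 0.0550 (adjusted p = 0.0247), against -0.16 on VN (adjusted p = 0.0794). EBP, a sterol isomerase, had 1518 and 1612 on Matrigel, while the VN libraries had 1428, 1236 and 1234 and the VNP2 libraries 1487, 1314 and 1404. It fell by 0.27 ± 0.0772 on VN (adjusted p = 0.0412), with -0.16 on VNP2 (adjusted p = 0.203). In FDFT1, LSS and EBP the highest VN library was replicate 1. Each of these calls was lost without either Matrigel library. On VN those of FDFT1 and EBP were also lost without VN replicate 2 or 3, and that of EBP without VNP2 replicate 3 or within VN and Matrigel alone (adjusted p up to 0.118 and 0.237). On VNP2 those of FDFT1 and LSS were also lost without VNP2 replicate 2 or 3 or without length offsets, and that of FDFT1 without VN replicate 3 (adjusted p up to 0.199 and 0.163).

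The other enzymes of this stretch were not called. NSDHL and CYP51A1, which act on the methyl groups of lanosterol, had -0.20 and -0.12 on VN (adjusted p = 0.0539 and 0.0592) and -0.13 and -0.09 on VNP2. In alternatives, DESeq2 called NSDHL lower on VN (adjusted p = 0.0357). The fit with at least 50 counts in every library called CYP51A1 lower there (adjusted p = 0.0466). SQLE, squalene epoxidase, had -0.02 and -0.07, TM7SF2 0.003 and -0.03, HSD17B7 -0.05 and -0.11, and DHCR7, which makes cholesterol from its last precursor, -0.10 and -0.12. MSMO1, the methyl oxidase, was the member with the lowest difference of VNP2 from VN, at -0.16 (adjusted p = 0.118), with 5348, 6078 and 5374 normalized counts on VN and 5033, 5167 and 4814 on VNP2.

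None of the 5 SREBP genes was called in a pair. Of all genes tested, 15.3% were called on VN, 16.6% on VNP2 and 5.10% between the coatings, so 0 of 5 lies near those shares. The median log2 fold changes of the 5 were 0.02 on VN and -0.02 on VNP2. Their summed TPM was 348 and 352 on Matrigel, 366 to 370 on VN and 370 to 375 on VNP2, a difference that was not tested. SREBF2, the factor that mainly drives cholesterol synthesis and whose upstream stretch holds the sterol regulatory element shown above, had 16083 and 15813 normalized counts on Matrigel, compared with 16904, 15712 and 15809 on VN and 17574, 17178 and 16939 on VNP2. All 3 VNP2 libraries lay above the other 5, and the log2 fold change was 0.11 ± 0.0388 against Matrigel (adjusted p = 0.0797) and 0.09 ± 0.0346 against VN (adjusted p = 0.166). In some alternatives SREBF2 was called higher on VNP2 than on Matrigel. Among them were DESeq2 (adjusted p = 0.0352) and the fit of VNP2 and Matrigel alone (adjusted p = 0.0233). INSIG1, which retains SCAP and is itself an SREBP target, had 3971 and 3969 on Matrigel, against 3808, 3718 and 3809 on VN and 3768, 3812 and 3676 on VNP2. These are differences of -0.07 ± 0.0367 and -0.08 ± 0.0367 (adjusted p = 0.223 and 0.172), with Matrigel above all other libraries in normalized counts. In TPM the groups overlapped, with 83.51 and 84.07 on Matrigel, 83.56 to 86.03 on VN and 81.59 to 84.25 on VNP2. INSIG2 and SCAP had values between -0.03 and 0.03 in both comparisons with Matrigel.

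SREBF1, the factor that mainly drives fatty acid synthesis and that LXRs activate, ranged from 3194 to 3518 normalized counts over all libraries, with -0.06 on VN and 0.0063 on VNP2. Its 2 transcripts that begin at the upstream first exons, SREBF1-202 and SREBF1-201 (starts at 17836987 and 17837002 of chromosome 17, minus strand), held 83.9 to 92.9% of its estimated counts in every library. SREBF1-206, which begins at 17823618, held 1.82 to 3.81%. Salmon splits reads that transcripts share, so these shares are estimates.

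In sterol transport, NPC1 fell on both coatings and NPC2 on VNP2, which together pass cholesterol out of the lysosome, and STARD4, which carries sterol between membranes, had 0.03 and -0.04 and was not called. That is 1 of 3 genes on VN and 2 of 3 on VNP2, where 9.60% and 9.13% of all genes tested were called lower. NPC1 had 2164 and 2303 normalized counts on Matrigel, while the VN libraries had 1891, 1967 and 1885 and the VNP2 libraries 2058, 1890 and 1790, with Matrigel above every other library. It fell by 0.22 ± 0.0617 on VN (adjusted p = 0.0354) and by 0.22 ± 0.0617 on VNP2 (adjusted p = 0.0316). NPC2 had 2890 and 3089 on Matrigel, compared with 2820, 2561 and 2603 on VN and 2687, 2409 and 2654 on VNP2. It fell by 0.21 ± 0.0617 on VNP2 (adjusted p = 0.0414), and -0.17 on VN was not called (adjusted p = 0.0978). All 3 calls were lost without either Matrigel library or VNP2 replicate 2. That of NPC1 on VN was also lost without any VN library, that of NPC1 on VNP2 without VNP2 replicate 3, and that of NPC2 without VN replicate 3 or VNP2 replicate 3 (adjusted p up to 0.236, 0.229 and 0.274).

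The LXR targets gave the only rises among the members. On VNP2, 2 of 3 were called higher than on Matrigel and 1 of 3 higher than on VN. Of all genes tested, 7.44% and 3.09% were called higher in these pairs. MYLIP, a ubiquitin ligase that sends lipoprotein receptors to degradation (chr6:16129125-16148248, plus strand), had 349 and 326 normalized counts on Matrigel, against 325, 333 and 368 on VN and 410, 458 and 456 on VNP2. The VNP2 libraries lay above the other 5, and the Matrigel and VN libraries overlapped. MYLIP rose on VNP2 by 0.39 ± 0.0925 against Matrigel (adjusted p = 0.0166, 30.8%) and by 0.37 ± 0.0819 against VN (adjusted p = 0.0277, 29.1%), with 0.02 between VN and Matrigel. The first call was lost without Matrigel replicate 2 or 3 or VNP2 replicate 2 or 3 (adjusted p up to 0.132), and the second without VN replicate 2 or VNP2 replicate 2 or 3 (adjusted p up to 0.107).

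ABCG1, which exports cholesterol to lipoprotein particles (chr21:42199689-42297244, plus strand), had 689 and 739 normalized counts on Matrigel, while the VN libraries had 744, 691 and 684 and the VNP2 libraries 905, 780 and 880. Again every VNP2 library was above the other 5. ABCG1 rose by 0.26 ± 0.0794 on VNP2 against Matrigel (adjusted p = 0.0493), and 0.28 ± 0.0707 against VN missed the threshold (adjusted p = 0.0530). The call was lost in 11 of 16 alternatives, among them DESeq2 and the fits without either Matrigel library, VN replicate 2 or 3 or VNP2 replicate 1 or 3 (adjusted p up to 0.270). Against VN, ABCG1 was called higher on VNP2 in some alternatives. Among them were DESeq2 (adjusted p = 0.0385) and the fit with the replicate number as a block (adjusted p = 0.0311). ABCA1, the other exporter and an LXR target as well, had 1194 and 1222 on Matrigel, compared with 1136, 1116 and 1232 on VN and 1096, 1185 and 1122 on VNP2, with differences of -0.06 and -0.09 that were not called.

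Among the 6 fatty acid enzymes, 4 fell on VN and 2 on VNP2 (66.7% and 33.3%). The shares called lower were 9.60% and 9.13% of all genes tested, and 13.3% and 12.1% of the 10500. SCD, the desaturase that makes oleate (chr10:100347124-100364834, plus strand), had 53747 and 53294 normalized counts on Matrigel, against 45299, 46569 and 44852 on VN and 45164, 45547 and 44062 on VNP2. The 6 libraries of both coatings lay together, under both Matrigel libraries. SCD fell by 0.23 ± 0.0297 on VN (adjusted p = 0.000538), which is 14.9%, and by 0.25 ± 0.0297 on VNP2 (adjusted p = 0.000214), which is 16.1%. ELOVL6, which lengthens palmitate (chr4:110045846-110199199, minus strand), had 8274 and 8014 on Matrigel, while the VN libraries had 6555, 7011 and 6624 and the VNP2 libraries 6613, 6628 and 6172. It fell by 0.28 ± 0.0449 on VN (adjusted p = 0.00259, 17.4%) and by 0.33 ± 0.0449 on VNP2 (adjusted p = 0.000552, 20.5%). The calls of SCD and ELOVL6 against Matrigel held in all 16 alternatives.

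FASN, fatty acid synthase, had 28065 and 28097 normalized counts on Matrigel, compared with 25121, 22093 and 22491 on VN and 29292, 24593 and 25644 on VNP2. It fell by 0.27 ± 0.0718 on VN (adjusted p = 0.0283), while VNP2 overlapped Matrigel (-0.08, adjusted p = 0.503). With the replicate number as a block, the VNP2 difference from Matrigel was -0.15 (adjusted p = 0.00945). FADS2, the first desaturase of polyunsaturated fatty acids, had 33721 and 34224 on Matrigel, against 32622, 30267 and 29841 on VN and 32458, 31436 and 31085 on VNP2. It fell by 0.14 ± 0.0408 on VN (adjusted p = 0.0477), and -0.10 on VNP2 was not called (adjusted p = 0.126). FADS1, the next desaturase, had 0.09 and 0.01, and ACACA, which makes malonyl-CoA, -0.08 and -0.06. The call of FASN was lost without either Matrigel library or VN replicate 2 or 3 (adjusted p up to 0.140), and that of FADS2 without any library but VN replicate 1, without length offsets and within the libraries of the pair alone (adjusted p up to 0.222).

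**Figure D3:**
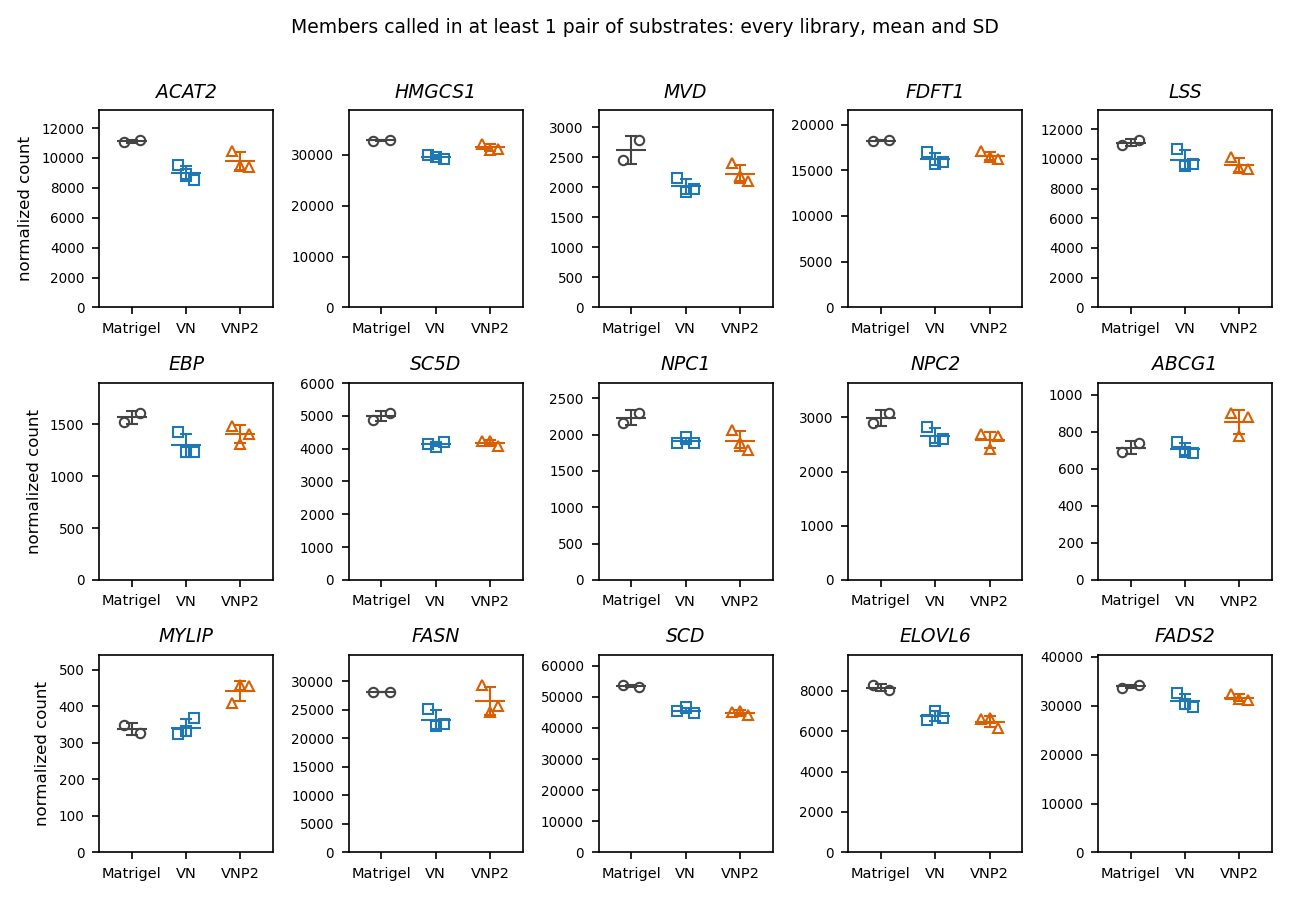
Normalized counts of the 15 members called in at least 1 pair, in every library, with the mean and SD of each substrate (Matrigel n = 2, VN n = 3, VNP2 n = 3) on axes that start at 0. SCD, ELOVL6 and SC5D were lower on both coatings, ACAT2, MVD and FASN lay lowest on VN, and MYLIP and ABCG1 were highest on VNP2.

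Between VNP2 and VN the count of calls moved with single libraries. MYLIP was the 1 member called between them. Without VN replicate 1, 8 members were called: ACAT2, HMGCS1, PMVK, SREBF2, ABCG1, MYLIP and FASN higher on VNP2 and MSMO1 lower, where 11% of all genes were called in place of 5.10%. Without VN replicate 2 or VNP2 replicate 3, 0 were called, with 3.21% and 3.03% of all genes. VN replicate 1 was the highest VN library for 18 of 35 members and for 37.4% of all genes. VNP2 replicate 1 was the highest VNP2 library for 22 of 35 members and for 34.5% of all genes.

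Other genes of lipid metabolism were counted from 5 lists of neighbouring steps. Of 25 further genes of fatty acid and phospholipid synthesis tested, 7 fell and 0 rose on VN, and 6 fell and 1 rose on VNP2, with medians of -0.05 and -0.07 (28% called on each, against 15.3% and 16.6% of all genes tested and 20.8% and 20.9% of the 10500). ME1, the malic enzyme that supplies NADPH, had 979 and 1027 normalized counts on Matrigel, while the VN libraries had 747, 727 and 681 and the VNP2 libraries 642, 607 and 657. It fell by 0.48 ± 0.0660 on VN (adjusted p = 0.000829) and by 0.66 ± 0.0664 on VNP2 (adjusted p = 7.11e-05). HACD1, a dehydratase of chain elongation, fell by 0.74 ± 0.124 and 0.54 ± 0.124, FADS3, a desaturase, by 0.63 ± 0.0949 and 0.48 ± 0.0945, and ELOVL1, an elongase of very long chains, by 0.37 ± 0.0714 and 0.49 ± 0.0715. The rise was ACSS1, a mitochondrial acetyl-CoA synthetase, at 1.02 ± 0.269, from 33.1 and 43.0 normalized counts on Matrigel to 53.2, 80.4 and 98.1 on VNP2. Against VN, ACSL4 rose and ACSL1 fell on VNP2 (0.21 and -0.30), both acyl-CoA synthetases, and ACSL4 held only 0.360 of the count that the authors' table gives it. HACD1 on VNP2 lost its call without either Matrigel library, FADS3 on VNP2 without Matrigel replicate 2, ELOVL1 on VN without Matrigel replicate 3, and ACSS1 without either Matrigel library, VNP2 replicate 1 or VNP2 replicate 3, with adjusted p up to 0.0917, 0.0510, 0.0829 and 0.185. The call of ACSL1 was lost without any library but VN replicate 1, or within VN and VNP2 alone (adjusted p up to 0.141). That of ACSL4 was lost without any VN or VNP2 library (adjusted p up to 0.158), and in 9 of 16 alternatives in all, where its log2 fold change came as low as 0.05 with limma on the authors' normalized counts (adjusted p = 0.625).

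Of 26 further genes of sterol and lipoprotein handling, 4 fell and 1 rose on VN, and 4 fell and 2 rose on VNP2, with medians of -0.05 and -0.08. That is 19.2% called on VN and 23.1% on VNP2, near the 20.8% and 20.9% of the 10500 genes and above the 15.3% and 16.6% of all genes tested. VLDLR, a lipoprotein receptor, had 967 and 1003 normalized counts on Matrigel, compared with 636, 669 and 686 on VN and 615, 568 and 534 on VNP2. It fell by 0.57 ± 0.0721 on VN (adjusted p = 0.000490) and by 0.78 ± 0.0724 on VNP2 (adjusted p = 3.91e-05), more than any of the 35 members. CAV1, the cholesterol-binding coat protein of caveolae, had 3430 and 3501 on Matrigel, against 2243, 2364 and 2288 on VN and 2723, 2674 and 2536 on VNP2. It fell by 0.59 ± 0.0454 on VN and 0.39 ± 0.0453 on VNP2 (adjusted p = 1.52e-05 and 0.000197) and stood 0.20 higher on the log2 scale on VNP2 than on VN (adjusted p = 0.0189). OSBPL6, an oxysterol-binding protein, fell by 0.33 ± 0.0662 and 0.51 ± 0.0665. The transporter ABCA7 rose by 0.40 ± 0.0987 on VN and ABCA5 by 0.43 ± 0.117 on VNP2. ABCA2, CAV1 and PLTP, the phospholipid transfer protein, were higher on VNP2 than on VN, at 0.39, 0.20 and 0.28. The calls of VLDLR and CAV1 against Matrigel, of OSBPL6 on VNP2 and of PLTP between VNP2 and VN held in all 16 alternatives. That of OSBPL6 on VN was lost without Matrigel replicate 2 (adjusted p = 0.0778), that of ABCA7 on VN without either Matrigel library or VN replicate 2 or 3 (adjusted p up to 0.152), and that of ABCA5 without Matrigel replicate 3 or VNP2 replicate 1 or 3 (adjusted p up to 0.277). Between VNP2 and VN, CAV1 lost its call without VN replicate 3, VNP2 replicate 1 or 2 or length offsets (adjusted p up to 0.0868), and ABCA2 without any library but VN replicate 1, without length offsets and within VN and VNP2 alone (adjusted p up to 0.149).

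Of 16 genes of SREBP processing and sterol sensing, 0 were called on VN, against 15.3% of all genes and 20.8% of the 10500. On VNP2, 2 of the 16 rose (12.5%). This is under the 16.6% of all genes called there in either direction. It is above the 7.44% of all genes and the 8.84% of the 10500 called higher there. ERLIN1, a membrane protein of the endoplasmic reticulum that takes part in protein degradation there, had 2606 and 2708 normalized counts on Matrigel, while the VN libraries had 2468, 2546 and 2546 and the VNP2 libraries 3311, 3265 and 3359. It rose on VNP2 by 0.32 ± 0.0409 against Matrigel (adjusted p = 0.000397) and by 0.39 ± 0.0363 against VN (adjusted p = 0.000182), and both calls held in all 16 alternatives. NFYA, the NF-Y subunit that contacts the CCAAT letters, rose by 0.14 ± 0.0366 (adjusted p = 0.0287) and lost the call without either Matrigel library or any VNP2 library (adjusted p up to 0.172), and without a filter on low counts. The LXR genes NR1H2 and NR1H3, their partner RXRA, and the further LXR targets LPCAT3, SMPDL3A and ABCG4 were not called in any pair. PLTP, given above and an LXR target as well, was called. It was higher on VNP2 than on VN, a call kept in all 16 alternatives. It was also lower on VN than on Matrigel, a call lost in 8 of 16.

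In sterol esters and oxysterols, 1 gene rose and 1 fell of 16 tested, on VN and on VNP2 alike (12.5%, against 15.3% and 16.6% of all genes). CYP7B1, an oxysterol hydroxylase, rose by 0.38 ± 0.103 on VN (adjusted p = 0.0308) and 0.49 ± 0.103 on VNP2 (adjusted p = 0.00847), from 154 and 168 normalized counts on Matrigel to 206 to 212 on VN and 220 to 229 on VNP2. NCEH1, which hydrolyses cholesteryl esters, fell by 0.51 ± 0.153 (adjusted p = 0.0479) and 0.67 ± 0.154 (adjusted p = 0.0135), from 165 and 169 to 98.8 to 128 on VN and 96.6 to 118 on VNP2. On VN the call of CYP7B1 was lost without either Matrigel library or VN replicate 2 or 3 (adjusted p up to 0.182), and in 8 of 16 alternatives in all, DESeq2 among them. That of NCEH1 was lost without any 1 library (adjusted p up to 0.197) and in 5 of the other 8 alternatives. On VNP2 CYP7B1 lost its call without Matrigel replicate 2 (adjusted p = 0.0761) and NCEH1 without either (adjusted p up to 0.0843). Of 11 genes of the isoprenoid branch, which leads from farnesyl diphosphate to dolichol, ubiquinone and protein prenylation, 0 were called on VNP2, and on VN 1 (9.09%, against 15.3% of all genes): NUS1 fell by 0.14 ± 0.0399 (adjusted p = 0.0446), a call lost in 14 of 16 alternatives, among them every fit that left out 1 library (adjusted p up to 0.232 in those and 0.419 in the others).

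**Figure D4:**
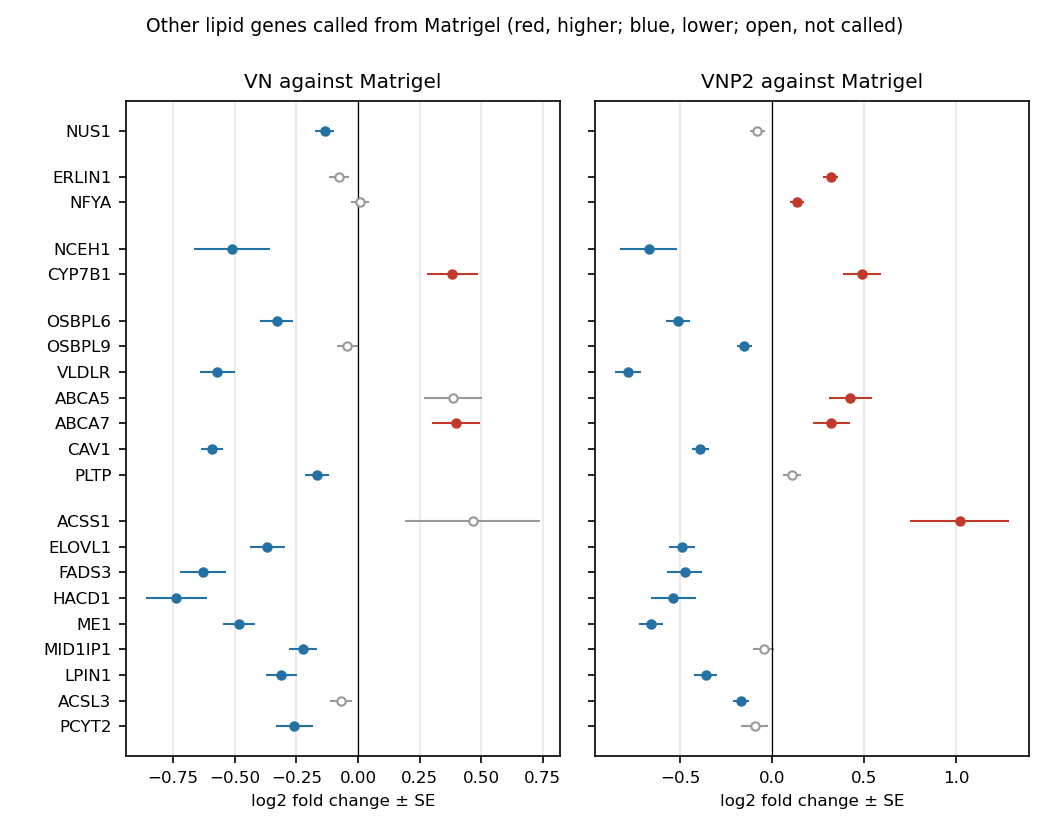
Log2 fold change with its standard error for the genes of the 5 further lists called against Matrigel on VN or VNP2, with blue points lower, red points higher and open points not called. VLDLR, CAV1, ME1, HACD1 and FADS3 fell on both coatings, and ERLIN1 rose on VNP2.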

How the data were processed

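The RNA data used here came from 8 libraries, 2 on Matrigel (replicates 2 and 3), 3 on VN and 3 on VNP2, grouped by GEO's labels. The paper reports 3 samples for each growth condition, so its Matrigel group is not complete here. The authors trimmed reads with Trim Galore and ran Salmon against GENCODE 32 (GRCh38.p13 in the submitters' notes; versions not given in the sources used here). The authors deposited estimated counts and TPM per transcript, and a gene table whose signal is counts normalized by DESeq2 (1.27.12 in the notes). Here the estimated counts were summed per gene through GENCODE 29 identifiers (205225 of 226608 transcripts, 98.8 to 98.9% of counts) and rounded, with offsets for average transcript length. The sums of the 35 members were 0.99 to 1.00 of those in the deposited table.

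Genes passing filterByExpr (minimum count 10, minimum total 15) were fitted in 1 edgeR 4.0.16 quasi-likelihood model (R 4.3.3, TMM) over all libraries, tested two-sided for each pair and across the substrates with Benjamini-Hochberg adjustment. The scripts were tested on simulated data. TPM served for levels between genes, for summed levels in each library and for other levels given in TPM. Alternatives were RLE scaling, DESeq2 1.42.0, no length offsets, no filter, a minimum of 50 counts in each library, the replicate number as a block, fits of 2 substrates alone, limma 3.58.1 on log2 of the authors' normalized counts plus 1, and each library left out.

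Members, motifs and lists were chosen with earlier results of these data known. Values in every library are given for members called in a pair and for the highest member of a role with none called; from each other list, at most the 4 largest called changes of a pair are named. Exceptions named after their values were seen are INSIG1, ABCA1, MSMO1, FDPS and the LXR genes. The pseudogene HSD17B7P2 had 3.97% as many counts as HSD17B7, and reads could be split between them.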

Additional observations from a re-analysis of the deposited data

How the results depend on the processing

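No called member changed direction under any alternative that was run. The 11 members called on VN against Matrigel numbered 9 to 16 under the alternatives that kept all libraries of the pair, and the 10 on VNP2 numbered 7 to 14. Across the substrates the 12 became 9 to 18. With each library left out in turn the counts ran from 4 to 14 on VN, 3 to 13 on VNP2, 4 to 19 across the substrates and 0 to 8 for VNP2 against VN. Across the substrates the count was 5 without Matrigel replicate 2, 4 without Matrigel replicate 3, 19 without VN replicate 1, 7 without VN replicate 2, 6 without VN replicate 3, 8 without VNP2 replicate 2 and 6 without VNP2 replicate 3, while the share of all genes called, 19.3% with every library, was 10.2%, 10%, 27.4%, 15.7%, 15.2%, 15.2% and 14.6% in these fits. A fit with 1 Matrigel library takes its spread from the other groups, and the share of all genes called also moved, for VN against Matrigel from 15.3% to 6.53% and 6.33% without Matrigel replicate 2 or 3. For VNP2 against VN the 1 call became 4 with DESeq2 (4 higher), 4 without a filter on low counts (3 higher and 1 lower), 2 with at least 50 counts in every library and 4 with the replicate block; the cause was not tested. Over all genes tested, deviations of same-numbered libraries from their group means correlated between -0.0451 and 0.0157. The replicate numbers thus showed no pairing over the genes as a whole. Among the members, replicate 1 was the highest VN library for 18 of 35 and the highest VNP2 library for 22 of 35. Matrigel had no replicate 1 here, and whether the members pair by replicate number was not tested. With the replicate block 18 members were called across the substrates, 16 on VN, 14 on VNP2 and 4 between VNP2 and VN. It added FASN to the calls on VNP2 against Matrigel (-0.15, adjusted p = 0.00945, against -0.08 without it) and against VN (0.19, adjusted p = 0.00483). It ended the call of ABCG1 against Matrigel, while ABCG1 was called higher on VNP2 against VN (0.27, adjusted p = 0.0311). Among the further genes it ended the calls of ACSL4, ABCA5, ACSS1, OSBPL9 and NUS1, and on VN those of CYP7B1 and NCEH1. Of the calls against Matrigel, those of ACAT2 on VN, SC5D on VNP2, and SCD and ELOVL6 on both coatings held in all 16 alternatives, whereas that of ABCG1 was lost in 11 and that of FADS2 in 9. Counting error weighs most on the lowest member, MYLIP, with a mean of 378 normalized counts, and on the further genes below that level, such as ACSS1, NCEH1 and CYP7B1.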
